A study of Homo sapiens with 18 samples.

Results

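The 9 transcripts described here encode the enzymes that make lanosterol and carry it towards cholesterol, and they were followed in all 18 libraries of the study. They are LSS, CYP51A1, TM7SF2, MSMO1, NSDHL, HSD17B7, EBP, SC5D and DHCR7, listed in the order in which the reactions are usually drawn, and they were taken by name from the 58884 genes counted. All 9 passed the filter on low counts in every comparison.

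The cells were T47D, an estrogen receptor-positive luminal breast cancer line. The line labelled T47D AAV is marked WT and the line labelled T47D JL is marked PARP1 KO. How the knockout was made, and whether it is a single clone, is not given in the sources used here. Each line was grown in DMEM with fetal bovine serum and kept for 48 hours with the vehicle DMSO, with niraparib or with olaparib, both inhibitors of the DNA repair enzyme PARP1 at 10 μmol/L, and each of the 6 groups has 3 libraries of polyadenylated RNA. Cells of a condition were grown in parallel dishes of an experiment, per the methods, and the labels do not tie a library to a dish or an experiment. P values thus measure the spread between these libraries, which may be partly technical.

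The library totals lay between 28890837 and 52251288 counted reads. By the chi-square per gene between libraries of a group, 3 libraries stood apart most clearly: WT DMSO replicate 1 (17.5 and 16.2, against 3.15 for the other pair), WT niraparib replicate 2 (11.3 and 15.5, against 3.27) and PARP1 KO niraparib replicate 3 (10.9 and 13.5, against 3.02). PARP1 KO DMSO replicate 3 stood apart less (9.79 and 5.41, against 3.03). All pairs of PARP1 KO olaparib libraries differed, with 9.65 for replicates 1 and 2, 16.9 for 1 and 3 and 7.63 for 2 and 3. As a check of the labels, PARP1 had 337 ± 26.8 CPM (counts per 1000000 counts, SD, n = 9) in WT libraries and 25.1 ± 1.39 CPM (n = 9) in those of PARP1 KO, which is 7.45% of the WT level (2-sided exact permutation test, P = 4.11e-05, the smallest value this design allows). The 8 luminal markers, among them ESR1, GATA3 and KRT8, were expressed in every library. Of the 9 markers of fibroblasts, immune cells and endothelium, COL1A1 had 88.3 to 153 CPM and the other 8 stayed under 1 CPM. The summed level of the luminal markers ran from 12316 to 12863 CPM in WT with DMSO, from 8866 to 9761 with niraparib and from 9637 to 10055 with olaparib. In PARP1 KO it ran from 13668 to 14391, from 12619.5 to 13014 and from 11609 to 12674 in the same order. The part of this shift in the results on the enzymes was not tested.

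Cholesterol is built from acetyl-CoA through mevalonate and squalene, and LSS closes the first sterol ring system, lanosterol. The enzymes after it remove methyl groups, move a double bond and reduce the product. When sterols in the endoplasmic reticulum are plentiful, INSIG proteins hold the SREBP transcription factors there in an inactive form, and when sterols run low, SREBP2 is released and raises the transcription of most genes of the pathway. Oxidised sterols also act on LXR, the receptor that drives cholesterol export. The labels set both inhibitors against DMSO in each genotype.

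The promoters of LSS, TM7SF2, MSMO1, NSDHL and EBP, which were lower with niraparib in WT cells, and of SC5D, which was higher, are shown (values below). DHCR7 was lower as well, and none is shown for it because both of its windows lie inside the gene as counted. The sequences are the bases before the annotated start in RefSeq on GRCh38.p14, cut where exons of the counting annotation begin. Capitals mark CCAAT, the box bound by NF-Y, or its reverse complement ATTGG, and GGGCGG, the box bound by Sp1, or CCGCCC.
LSS, chr21:46228825-46229024, minus strand: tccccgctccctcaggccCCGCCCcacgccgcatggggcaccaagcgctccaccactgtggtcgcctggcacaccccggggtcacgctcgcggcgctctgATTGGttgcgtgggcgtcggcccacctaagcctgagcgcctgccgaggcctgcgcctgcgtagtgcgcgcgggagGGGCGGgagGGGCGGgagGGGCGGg
TM7SF2, chr11:65111622-65111844, plus strand: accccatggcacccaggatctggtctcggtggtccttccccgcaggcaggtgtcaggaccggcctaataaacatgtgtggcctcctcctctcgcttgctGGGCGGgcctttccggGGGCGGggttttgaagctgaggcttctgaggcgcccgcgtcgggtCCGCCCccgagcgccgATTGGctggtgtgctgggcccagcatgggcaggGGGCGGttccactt
MSMO1, chr4:165327419-165327666, plus strand: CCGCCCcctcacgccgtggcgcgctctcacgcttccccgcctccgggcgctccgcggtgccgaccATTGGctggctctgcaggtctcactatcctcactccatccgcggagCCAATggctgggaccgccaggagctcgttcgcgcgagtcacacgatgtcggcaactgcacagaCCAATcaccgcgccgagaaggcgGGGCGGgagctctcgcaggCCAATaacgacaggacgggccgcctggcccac
NSDHL, chrX:152830813-152830966, plus strand: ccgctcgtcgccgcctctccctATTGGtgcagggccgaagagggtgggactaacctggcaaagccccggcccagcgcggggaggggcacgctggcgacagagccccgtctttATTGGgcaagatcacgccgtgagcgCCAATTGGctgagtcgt
EBP, chrX:48521558-48521798, plus strand: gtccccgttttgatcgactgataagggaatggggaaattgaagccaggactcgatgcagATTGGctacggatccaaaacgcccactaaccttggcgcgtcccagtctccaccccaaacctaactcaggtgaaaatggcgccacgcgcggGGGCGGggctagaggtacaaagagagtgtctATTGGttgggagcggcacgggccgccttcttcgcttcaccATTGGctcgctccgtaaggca
SC5D, chr11:121292521-121292680, plus strand: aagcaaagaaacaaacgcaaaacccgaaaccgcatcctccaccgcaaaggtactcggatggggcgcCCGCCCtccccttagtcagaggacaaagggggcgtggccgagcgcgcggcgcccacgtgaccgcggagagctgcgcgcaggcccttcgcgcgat

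RefSeq lists 11 promoter windows of 300 bases for the 9 genes, with SC5D and DHCR7 at 2 windows each. A CCAAT box stands in 9 of the 11 windows, against 34.6% of the 35116 windows of this length. By gene it stands in a window of 8 of the 9, CYP51A1 being the exception. MSMO1 has 4 matches, NSDHL 5 (4 of them in the stretch printed, a pair of which overlap in CCAATTGG) and EBP 3, whereas 3.26% of all windows hold at least 3. Of the other genes lower with niraparib, LSS and TM7SF2 have 1 match each and DHCR7 has 2 in a window and 0 in the other. The 2 windows of SC5D overlap and share a single CCAAT match, downstream of the stretch printed, so this box is counted in both windows. HSD17B7 has 2. A GC box stands in 9 of the 11 windows, against 45.0% of all windows. By gene it stands in a window of 8, all but NSDHL, and LSS has the most with 7. The sterol regulatory element was searched as TCACNCCAC on both strands and is in 1.13% of all windows and in none of the 11, which says only that these letters are not in these windows.

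The annotation sets how well each enzyme could be counted. Reads that could belong to several entries on a strand were not counted, and CYP51A1 (ENSG00000001630, chr7:92112153-92134803, minus strand) shares 2844 of its 3529 exon bases, 80.6%, with ENSG00000285772, of which a part also lies in ENSG00000285953. Both of these entries had 0 counts in all 18 libraries. The 685 bases left are 4 runs of 6, 236, 305 and 138 bases, and they gave 129 to 271 reads per library. EBP (ENSG00000147155, chrX:48521799-48528716, plus strand) shares 36.4% of 1768 exon bases with ENSG00000286268, which had 17 counts in all libraries together. TM7SF2 (ENSG00000149809, chr11:65111845-65116384, plus strand) shares 18 bases with VPS51, and the other 6 share none.

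Those 6 are LSS (ENSG00000160285, chr21:46188141-46228824, minus strand), MSMO1 (ENSG00000052802, chr4:165327667-165343164, plus strand), NSDHL (ENSG00000147383, chrX:152830967-152869729, plus strand), HSD17B7 (ENSG00000132196, chr1:162790702-162812817, plus strand), SC5D (ENSG00000109929, chr11:121292681-121313410, plus strand) and DHCR7 (ENSG00000172893, chr11:71428193-71452868, minus strand). HSD17B7 had 197 to 383 reads per library, and its pseudogene HSD17B7P2 had 16 to 115, so the split of reads between near-identical copies is uncertain for it. The pseudogenes CYP51A1P1, CYP51A1P2 and CYP51A1P3 had at most 12 reads in any library. The 7 enzymes besides CYP51A1 and HSD17B7 had between 854 and 10751 reads per library.

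Per length, HSD17B7 was the least abundant of the 9 transcripts in all 18 libraries, and DHCR7 the most abundant in 17, with TM7SF2 slightly above it in WT niraparib replicate 3. In WT cells with DMSO the level was 48.6 ± 1.35 CPM per kilobase of countable exon for DHCR7 (SD, n = 3, here and for the levels that follow), 40.5 ± 2.59 for EBP, 38.4 ± 3.32 for TM7SF2 and 31.1 ± 0.703 for MSMO1. A middle group followed with LSS at 18.2 ± 1.69, NSDHL at 16.1 ± 1.06 and SC5D at 11.5 ± 0.733. CYP51A1 stood at 7.07 ± 0.121 on its countable bases and HSD17B7 at 1.5 ± 0.11. The lengths take in every annotated exon, used in these cells or not, so the order between genes is approximate. This holds most for CYP51A1, with 80.6% of its exon bases not countable. The libraries of EBP and TM7SF2 overlapped on this scale, from 37.8 to 42.9 and from 34.7 to 41.2, while those of LSS, from 17.1 to 20.2, lay above those of NSDHL, from 14.9 to 16.8. With niraparib in WT cells MSMO1 dropped from the 4th place to the 6th in replicates 1 and 3 and to the 7th in replicate 2, and it held the 3rd or 4th place in the 12 other drug and PARP1 KO libraries.

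**Figure D1:**
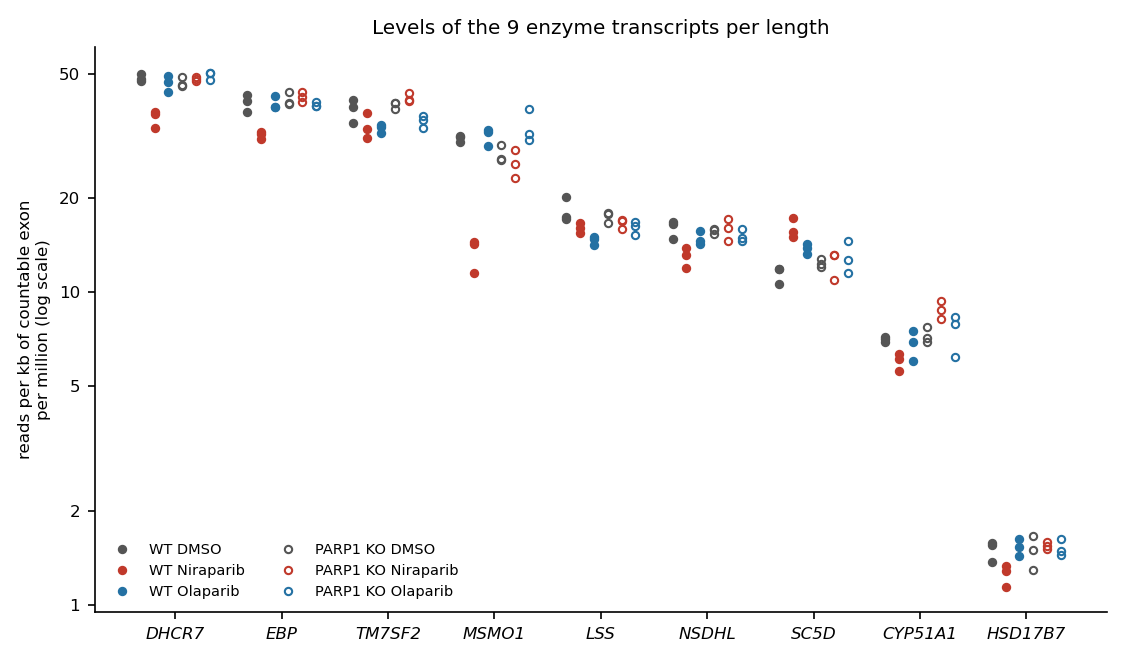
Level of each enzyme transcript in CPM per kilobase of countable exon (log scale), 1 point per library, 3 libraries per group, with WT as filled and PARP1 KO as open points; genes run from the highest to the lowest mean in WT with DMSO. HSD17B7 is the lowest transcript in every library, and the WT niraparib libraries of MSMO1 and of DHCR7 (33.6 to 37.9) lie below their other 15.

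In WT cells niraparib lowered 6 of the 9 transcripts (LSS, TM7SF2, MSMO1, NSDHL, EBP and DHCR7) and raised 1 (SC5D) at an adjusted P value below 0.05, beside 18.1% of all 22446 genes tested that were lower and 19.9% that were higher. CYP51A1 and HSD17B7 had lower means and did not pass. Without WT DMSO replicate 1 the counts were again 6 lower and 1 higher, with HSD17B7 in place of LSS, and without WT niraparib replicate 2 they were 5 lower and 1 higher, with TM7SF2 lost. TM7SF2 was also lost without WT DMSO replicate 2 or 3. Without WT niraparib replicate 1 both LSS and TM7SF2 were lost, and only MSMO1, NSDHL, EBP and DHCR7 stayed lower. The change of MSMO1 was the only one of the 9 beyond 1.5-fold. Of the 22446 genes tested, 1283 passed lower and 1819 higher beyond that size. The median log2 fold change was -0.27 over the 9 and -0.025 over all genes tested. Summed over the 9, the level was 741 to 768 CPM with DMSO and 619 to 687 CPM with niraparib. In RNA of whole cultures, fewer cells that make a transcript and less of it per cell cannot be told apart.

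MSMO1, the monooxygenase that starts the removal of the paired methyl groups of the sterol ring, had 89.2, 90.1 and 86.3 CPM in the 3 WT DMSO libraries, 40.8, 32.9 and 41.5 CPM with niraparib and 94.1, 83.7 and 93.2 CPM with olaparib. The niraparib libraries lay below all the others, and those of DMSO and olaparib overlapped. In PARP1 KO cells it had 75.7, 76.4 and 84.4 CPM with DMSO, 81.3, 73.5 and 66 CPM with niraparib and 110.1, 91.2 and 87.9 CPM with olaparib. There the DMSO and niraparib libraries overlapped and the olaparib libraries were the highest. With niraparib in WT, MSMO1 fell by 56.9%. On the log2 scale the change was -1.21 (standard error 0.077, adjusted P = 3.19e-09), and it stayed between -1.27 and -1.11 whichever library was left out.

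The next step of the same demethylation belongs to NSDHL, a dehydrogenase that releases the oxidised methyl group as carbon dioxide. NSDHL had 29.6, 33.1 and 33.5 CPM in WT with DMSO, 27.7, 23.9 and 26.3 CPM with niraparib and 31.3, 28.4 and 29.1 CPM with olaparib. The PARP1 KO libraries had 30.7, 31.9 and 31.6 CPM, 34.4, 32 and 29.1 CPM, and 31.8, 29.8 and 29.1 CPM in the same order. The WT niraparib libraries were the lowest of the 18, and the other groups overlapped. The change with niraparib in WT was -0.31 (standard error 0.071, adjusted P = 0.00118).

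HSD17B7, the ketone reductase that closes the demethylation cycle, had 6.56, 7.43 and 7.51 CPM in WT with DMSO, 6.36, 6.11 and 5.46 CPM with niraparib and 6.84, 7.31 and 7.74 CPM with olaparib. In PARP1 KO cells it had 7.14, 7.92 and 6.15 CPM, 7.39, 7.59 and 7.18 CPM, and 7.77, 7.08 and 6.91 CPM. The WT niraparib libraries lay below those of DMSO by a narrow gap, and the log2 change was -0.27 (standard error 0.11, adjusted P = 0.0682). It passed without DMSO replicate 1 (adjusted P = 0.0332) and with filterByExpr (adjusted P = 0.0461).

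DHCR7, which reduces the last double bond of the sterol ring and whose loss causes Smith-Lemli-Opitz syndrome, had 198, 209 and 201 CPM in WT with DMSO, 157, 139.9 and 155 CPM with niraparib and 204, 182 and 196 CPM with olaparib. The levels in PARP1 KO were 203, 191 and 191 CPM, 203, 198 and 201 CPM, and 209.6, 209.8 and 199 CPM. The 3 WT niraparib libraries were below the other 15, and the change was -0.43 (standard error 0.055, adjusted P = 1.43e-06).

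EBP, the isomerase that moves the ring double bond, had 42.4, 48.2 and 46.1 CPM in WT with DMSO, 36.2, 34.8 and 36.7 CPM with niraparib and 43.9, 44.2 and 47.6 CPM with olaparib. With PARP1 KO it had 49.0, 45.2 and 44.9 CPM, 49.2, 47.5 and 45.6 CPM, and 44.5, 44.3 and 45.7 CPM. Again the WT niraparib libraries were below the other 15. The change was -0.35 (standard error 0.060, adjusted P = 6.35e-05), on the part of EBP that no other entry shares.

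SC5D, the desaturase that acts between EBP and DHCR7, went the other way. It had 107, 119 and 119 CPM in WT with DMSO, 157, 151 and 174 CPM with niraparib and 144, 134 and 139 CPM with olaparib, so that the 3 WT groups did not overlap. The PARP1 KO libraries had 121, 124 and 129 CPM, 132, 132 and 110.1 CPM, and 146, 128 and 116 CPM, and these groups overlapped. The rise with niraparib in WT was 0.48 on the log2 scale (standard error 0.057, adjusted P = 5.24e-07), or 39.2%.

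LSS, the cyclase that forms lanosterol, had 146, 124 and 126 CPM in WT with DMSO, 112, 121 and 117 CPM with niraparib and 109, 103 and 107 CPM with olaparib. Its PARP1 KO values were 129, 129 and 121 CPM, 122, 115 and 123 CPM, and 110.3, 118 and 121 CPM. The WT groups followed each other without overlap, with DMSO highest and olaparib lowest, and DMSO replicate 1 stood above the other 17 libraries. The change with niraparib was -0.18 (standard error 0.056, adjusted P = 0.0139). It was -0.10 without DMSO replicate 1 (adjusted P = 0.109) and had an adjusted P of 0.0639 without niraparib replicate 1.

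TM7SF2, a reductase of the double bond left by the CYP51A1 reaction, had 118, 133 and 139.7 CPM in WT with DMSO, 113, 106 and 127 CPM with niraparib and 109.5, 115 and 116 CPM with olaparib. With PARP1 KO it had 137, 137 and 131 CPM, 139, 147 and 139 CPM, and 113, 120.3 and 124 CPM. The DMSO and niraparib libraries of WT overlapped, while the olaparib libraries of both genotypes were below their DMSO libraries. The change with niraparib in WT was -0.18 (standard error 0.067, adjusted P = 0.0457), and it did not pass without niraparib replicate 1 or 2 or without DMSO replicate 2 or 3, with an adjusted P of up to 0.193.

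CYP51A1, the cytochrome P450 that removes the first methyl group of lanosterol, had 4.86, 4.75 and 4.91 CPM in WT with DMSO, 3.83, 4.18 and 4.35 CPM with niraparib and 4.12, 4.74 and 5.14 CPM with olaparib. The PARP1 KO libraries had 5.31, 4.89 and 4.76 CPM, 5.64, 5.99 and 6.42 CPM, and 5.69, 4.24 and 5.41 CPM. The niraparib libraries were below those of DMSO in WT and above them in PARP1 KO. Neither difference passed: the log2 value was -0.23 in WT (standard error 0.13, adjusted P = 0.179) and 0.28 in PARP1 KO (standard error 0.14, adjusted P = 0.55). These values rest on the 685 countable exon bases, and the standard error was the largest of the 9.

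**Figure D2:**
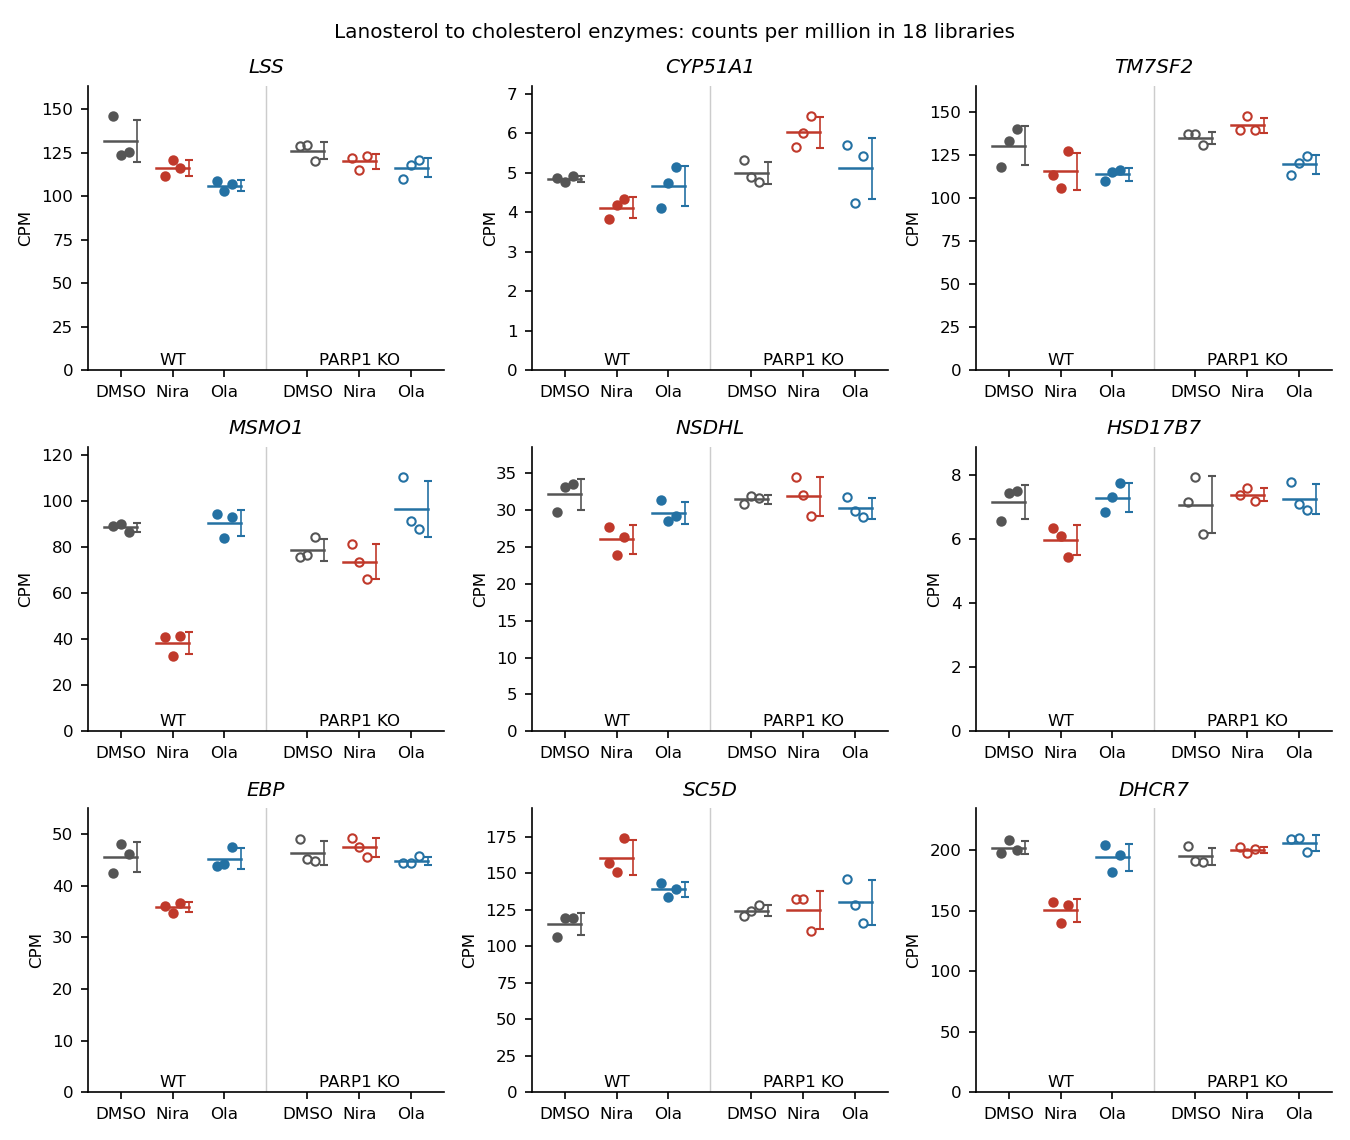
CPM of each transcript in the 18 libraries, with 1 panel per gene in pathway order; points are libraries, horizontal lines are group means and vertical bars are 1 SD (n = 3), filled for WT and open for PARP1 KO. With niraparib in WT, MSMO1 lies between 32.9 and 41.5 CPM and SC5D between 151 and 174 CPM.

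With olaparib in WT cells, 2 of these transcripts passed. LSS fell by 0.31 on the log2 scale (standard error 0.056, adjusted P = 4.74e-04), and SC5D rose by 0.27 (standard error 0.057, adjusted P = 0.00141), which makes 1 of 9 lower and 1 higher beside 7.77% and 11.2% of all genes tested. LSS was at -0.23 without DMSO replicate 1 and still passed (adjusted P = 0.00653). TM7SF2 was just outside the threshold at -0.19 (standard error 0.067, adjusted P = 0.0535), and it passed under all 6 other settings tried and without DMSO replicate 1. The remaining 6 had log2 fold changes between -0.11 and 0.03. For MSMO1 the 95% interval of the change was -0.13 to 0.19 and for DHCR7 it was -0.17 to 0.06.

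**Figure D3:**
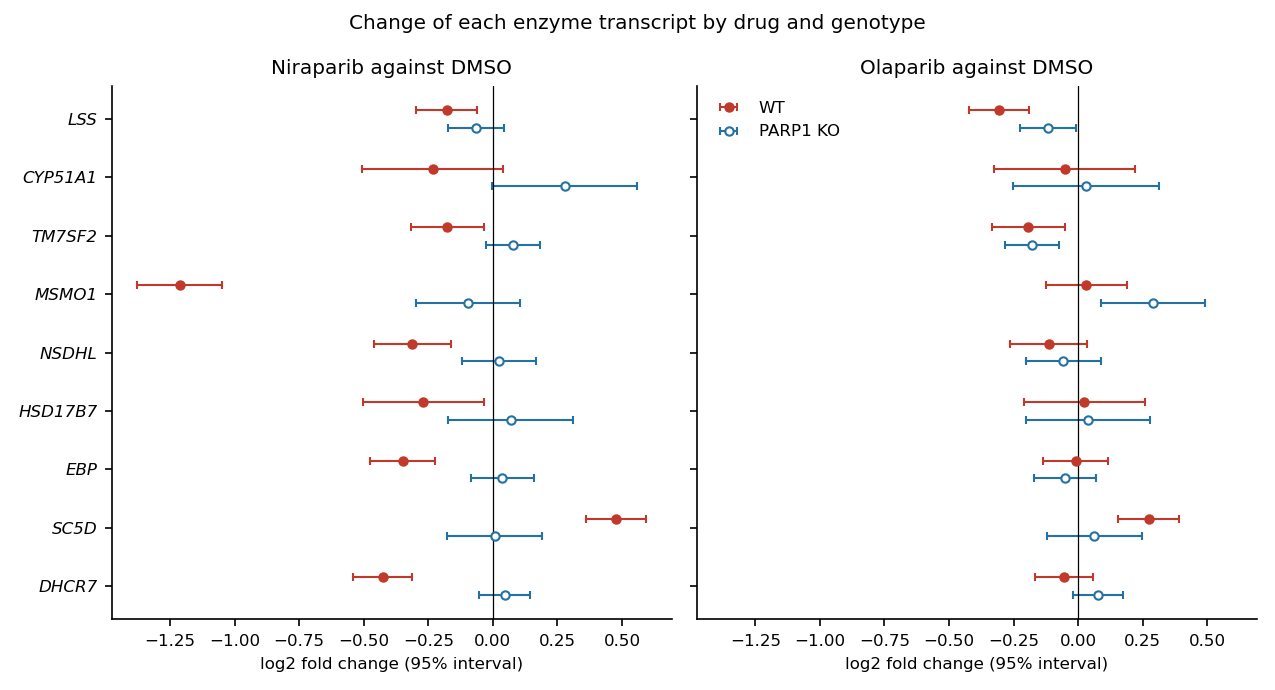
Log2 fold change of each transcript against DMSO with its 95% interval, for niraparib and for olaparib, in WT (filled) and PARP1 KO (open), 3 libraries per group. With niraparib, MSMO1 is at -1.21 and SC5D at 0.48 in WT, and all 9 intervals in PARP1 KO include 0.

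The inhibitors were set against each other at the same dose and time, as 1 pair in each genotype with P values adjusted over all genes. In WT cells 4 transcripts were lower with niraparib than with olaparib and 1 was higher, beside 16.2% and 16.1% of all genes tested. MSMO1 differed by -1.25 (standard error 0.077, adjusted P = 5.29e-09), DHCR7 by -0.37 (standard error 0.055, adjusted P = 1.26e-05) and EBP by -0.34 (standard error 0.060, adjusted P = 1.24e-04). NSDHL differed by -0.20 (adjusted P = 0.0385) and SC5D by 0.20 (adjusted P = 0.00769). NSDHL did not pass without niraparib replicate 2 or 3, or without olaparib replicate 1 or 3, with an adjusted P of up to 0.182. SC5D did not pass without niraparib replicate 3 or olaparib replicate 2, with an adjusted P of up to 0.0734, or with all 18 libraries in 1 fit (0.0634). NSDHL also did not pass with the replicate block (0.0567). No difference was called for LSS (0.13, interval 0.01 to 0.24), CYP51A1 (-0.18, -0.46 to 0.09), TM7SF2 (0.02, -0.13 to 0.16) and HSD17B7 (-0.29, -0.53 to -0.06, adjusted P = 0.0542). HSD17B7 passed here with filterByExpr (adjusted P = 0.0402) and without niraparib replicate 1 (adjusted P = 0.0486).

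In PARP1 KO cells niraparib changed 0 of the 9 transcripts in either direction, beside 0.0499% of 22037 genes lower and 0.059% higher. At an unadjusted P value below 0.05 the edgeR count was also 0. At an adjusted P below 0.05 the count was 0 with DESeq2 and 0 without niraparib replicate 3. MSMO1 was at -0.10 (interval -0.30 to 0.11), SC5D at 0.01 (-0.18 to 0.19) and DHCR7 at 0.05 (-0.05 to 0.14). These intervals do not reach the WT values of -1.21, 0.48 and -0.43. Summed over the 9, the level was 742 to 758 CPM with DMSO and 728 to 775 CPM with niraparib.

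Olaparib lowered TM7SF2 in PARP1 KO cells by 0.18 on the log2 scale (standard error 0.051, adjusted P = 0.0322), which is 1 of 9 lower and 0 higher beside 3.87% and 4.42% of all genes. At an unadjusted P value below 0.05 there were 3, the others being LSS at -0.12 and MSMO1 at 0.29 (adjusted P = 0.0787 for MSMO1). LSS ranked 4084 by P value, so at least 4084 of the 22037 genes were below that unadjusted threshold. The TM7SF2 call rests on several libraries: it did not pass without olaparib replicate 1 or 2 or without any 1 of the DMSO replicates, with an adjusted P of up to 0.157, nor with the replicate block (0.053) or with all 18 libraries in 1 fit (0.0584). MSMO1 passed without olaparib replicate 3, at 0.35 (adjusted P = 0.0422), and also with DESeq2 or without a filter on low counts. It did not pass in the 5 other fits that left out a library. Among those its log2 value went down to 0.18 and its adjusted P up to 0.209.

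Between the inhibitors in PARP1 KO cells, TM7SF2 was higher with niraparib by 0.26 (standard error 0.051, adjusted P = 0.00225) and MSMO1 was lower by 0.39 on the log2 scale, at -0.39 (standard error 0.092, adjusted P = 0.0201), beside 5.73% of all genes lower and 4.27% higher. Against the DMSO libraries, all 3 of olaparib were higher for MSMO1 and 2 of the 3 of niraparib were lower. This MSMO1 difference had an adjusted P of 0.0771 without niraparib replicate 2. The other 7 lay between -0.06 and 0.25, with CYP51A1 the highest.

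Without drug, 0 of the 9 were called lower or higher in PARP1 KO than in WT, beside 0.584% and 0.811% of 24675 genes. The edgeR count at an unadjusted P value below 0.05 was 0, and the DESeq2 count at an adjusted P below 0.05 was 0. Differences ran from -0.17 for MSMO1 (interval -0.38 to 0.05), whose 3 PARP1 KO libraries were all below those of WT, to 0.11 for SC5D (-0.06 to 0.28), whose libraries were all above.

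The change with niraparib itself differed between the genotypes for 7 of the 9. The interaction is the log2 change in PARP1 KO minus that in WT, and it was higher for 6 (CYP51A1, TM7SF2, MSMO1, NSDHL, EBP and DHCR7) and lower for SC5D, beside 10.4% and 12.5% of all genes tested. It was 1.11 for MSMO1 (standard error 0.14, adjusted P = 2.45e-05), 0.47 for DHCR7 (standard error 0.072, adjusted P = 4.28e-06), 0.38 for EBP (standard error 0.083, adjusted P = 6.28e-04) and -0.47 for SC5D (standard error 0.11, adjusted P = 0.00434). These 4 passed in each of the 12 fits that left out a library. NSDHL was at 0.33 (adjusted P = 0.0127) and did not pass without PARP1 KO niraparib replicate 1 or WT niraparib replicate 2, with an adjusted P of up to 0.0569.

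CYP51A1 had an interaction of 0.50 (standard error 0.18, adjusted P = 0.0435), although neither of its changes passed alone, and it did not pass with the replicate block (adjusted P = 0.0501) or without a filter on low counts (adjusted P = 0.0712). With a library left out, it passed in 2 of 12 fits, those without PARP1 KO niraparib replicate 1 and without PARP1 KO DMSO replicate 1. TM7SF2 was at 0.25 (adjusted P = 0.0273). It did not pass without PARP1 KO niraparib replicate 2, PARP1 KO DMSO replicate 3, WT niraparib replicate 1 or 2, or WT DMSO replicate 2 or 3, with an adjusted P of up to 0.112. LSS (0.11, adjusted P = 0.371) and HSD17B7 (0.33, adjusted P = 0.141) were not called. The genotypes are different lines, so the effect of PARP1 loss and other differences between the lines cannot be told apart.

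For olaparib the interaction was called for 0 of the 9 in either direction, beside 1.35% of all genes lower and 0.912% higher. At an unadjusted P value below 0.05 there was 1, LSS at 0.19 (adjusted P = 0.204), which ranked 2321 by P value among 24675 genes. DESeq2 called 0 at an adjusted P below 0.05. SC5D was at -0.21 (interval -0.45 to 0.03) and MSMO1 at 0.26 (-0.04 to 0.56). With a library left out, SC5D ranged from -0.30 to -0.13, MSMO1 from 0.15 to 0.32 and LSS from 0.11 to 0.24.

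Of the 9 enzymes upstream of lanosterol, 7 were lower and 1 higher with niraparib in WT, beside 18.1% and 19.9% of all genes tested. HMGCS1, which makes the precursor of mevalonate, was at -0.89 (standard error 0.053, adjusted P = 1.5e-11), and SQLE, the squalene epoxidase whose product LSS cyclises, was at -0.86 (standard error 0.054, adjusted P = 3.3e-11). Also lower were MVD at -0.70, FDFT1 at -0.61, IDI1 at -0.57, MVK at -0.56 and FDPS at -0.21. ACAT2, which joins acetyl-CoA units at the entry, rose by 0.15 (adjusted P = 0.0349), and PMVK was at 0.03 (adjusted P = 0.682). The median of the 9 was -0.57. In PARP1 KO cells niraparib changed 0 of these 9 (median -0.05), beside 0.0499% of all genes lower and 0.059% higher, and the interaction was higher for 7 and lower for ACAT2, beside 10.4% and 12.5%. Olaparib in WT lowered MVK by 0.35 on the log2 scale (adjusted P = 2.32e-04) and raised none of the 9, beside 7.77% of all genes lower and 11.2% higher. In PARP1 KO cells olaparib raised SQLE by 0.23 (adjusted P = 0.0104) and HMGCS1 by 0.18 (adjusted P = 0.0448), and ACAT2 fell by 0.25 (adjusted P = 0.00834), beside 4.42% of all genes higher and 3.87% lower. The olaparib interaction was called for SQLE alone among these 3, at 0.29 (adjusted P = 0.0348), beside 0.912% of all genes higher and 1.35% lower, and was not for HMGCS1 (adjusted P = 0.131) and ACAT2 (adjusted P = 0.19).

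**Figure D4:**
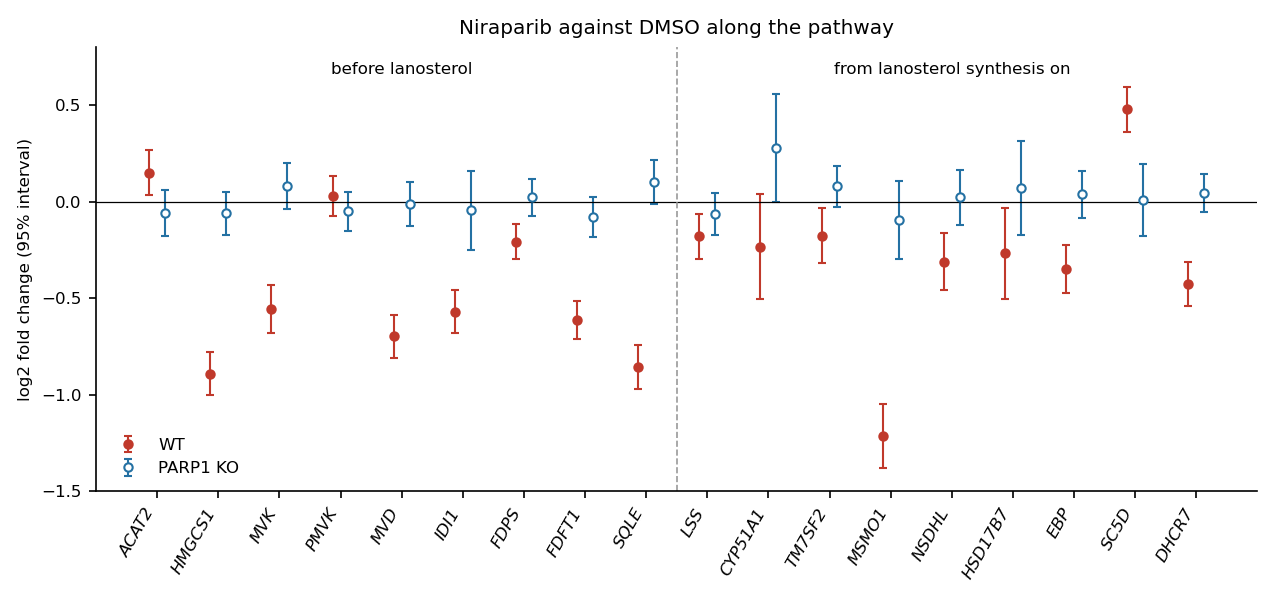
Log2 fold change with niraparib against DMSO and its 95% interval for the 9 enzymes before lanosterol and the 9 from LSS on, in pathway order, in WT (filled) and PARP1 KO (open), 3 libraries per group. MSMO1 is the lowest point at -1.21, SC5D the highest in WT at 0.48, and the intervals of all 18 PARP1 KO points include 0.

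Of the 4 electron donors of the oxidations and the scaffold ERG28, which holds the demethylation enzymes together, niraparib in WT lowered ERG28 by 0.27 on the log2 scale (adjusted P = 0.00248) and CYB5A by 0.16 (adjusted P = 0.037). That is 2 of 5 lower, beside 18.1% of all genes. POR, CYB5B and CYB5R3 did not pass, and the median of the 5 was -0.14. Niraparib changed 0 of the 5 in PARP1 KO, where 0.0499% of all genes were lower and 0.059% higher. Olaparib changed 0 of the 5 in WT, beside 7.77% of all genes lower and 11.2% higher. In PARP1 KO it lowered CYB5A alone, by 0.19 on the log2 scale (adjusted P = 0.0409), beside 3.87% lower and 4.42% higher. Between the drugs there, CYB5A was higher with niraparib by 0.27 (adjusted P = 0.00404), beside 4.27% of all genes higher and 5.73% lower.

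Of 9 regulators, 3 were lower and 0 higher with niraparib in WT, beside 18.1% and 19.9% of all genes, with a median of -0.13. INSIG1, the sterol-sensing anchor of SREBP and itself one of its targets, had 83.2, 79.6 and 80.4 CPM with DMSO and 28.1, 20.2 and 25.2 CPM with niraparib, a change of -1.74 (standard error 0.10, adjusted P = 8.14e-08). MBTPS1, the first protease that cuts SREBP free, was at -0.56 (adjusted P = 1.72e-08) and SREBF2, which encodes SREBP2, at -0.36 (adjusted P = 1.39e-06). SREBF1 was at -0.12 (adjusted P = 0.0577), and the LXR genes NR1H2 and NR1H3 were at -0.07 and -0.02 without passing. With olaparib in WT, SREBF1 fell by 0.27 on the log2 scale (adjusted P = 5.83e-04) and NR1H2 rose by 0.15 (adjusted P = 0.0456), which is 1 of 9 lower and 1 higher beside 7.77% and 11.2% of all genes. In PARP1 KO, olaparib changed 0 of the 9, beside 3.87% and 4.42% of all genes. With edgeR, 3 had an unadjusted P value below 0.05 (SREBF1, SCAP and INSIG1), as did at least 4084 of the 22037 genes tested. With niraparib in PARP1 KO, 0 of the 9 passed, beside 0.0499% of all genes lower and 0.059% higher, and INSIG1 was at -0.15 (adjusted P = 0.827).

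Of the 3 relatives, LBR, a nuclear envelope protein with the same reductase activity as TM7SF2, was at -0.57 with niraparib (standard error 0.053, adjusted P = 1.47e-08) and at -0.46 with olaparib (adjusted P = 2.2e-06) in WT. EBPL, the paralog of EBP, was at -0.60 with niraparib (adjusted P = 5.27e-06) and at -0.23 with olaparib (adjusted P = 0.0639). FAXDC2, a relative of MSMO1 and SC5D, had at most 11 reads in any library and did not pass. Beside these, 18.1% of all genes were lower with niraparib and 7.77% with olaparib in WT. Niraparib changed 0 of the 3 in PARP1 KO, where 0.0499% of all genes were lower and 0.059% higher.

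Among the 11018 other genes whose mean reached 5 CPM, those whose log2 levels ran closest to MSMO1 over the 18 libraries were INSIG1 (Pearson r = 0.993), KLHDC2 (0.991) and DAXX (0.989). For DHCR7 they were PTPRF (0.975), NOTCH3 (0.973) and ADAM15 (0.969), and for EBP they were CAPN1 (0.959), XYLT2 (0.949) and MGAT4B (0.943). Among the genes closest to SC5D were HLA-B (0.946) and HIF1A (0.945). LSS was closest to PSMA3-AS1 (0.924), TUG1 and MAT2A, TM7SF2 to NME4 (0.958), APEH and HGSNAT, and NSDHL to PPIB (0.953), MAGED2 and TTC9. The thinly counted CYP51A1 and HSD17B7 reached 0.817 with NAGLU and 0.843 with RAB11FIP3. CYP51A1 did not itself reach a mean of 5 CPM and was compared with 11019 genes. These values describe the 18 libraries, which fall into 6 shared groups.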

How the data were processed

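RNA of WT and PARP1 KO T47D cells was sequenced by the authors in 18 libraries. Reads were trimmed (Trimmomatic), mapped to hg38 (STAR), passed through Picard MarkDuplicates and assigned to Ensembl release 96 exons by featureCounts 2.0.0, which used primary alignments on the reverse strand. The authors deposited raw counts; the names of the deposited files say deduplicated, but the methods mention just the marking and counting of PCR duplicates. Labels and methods differ on RNA input, medium and extraction kit, and name no sequencing batch. Some genes are not reported here.

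In each fit, genes whose counts summed to over 10 entered the test in edgeR 4.0.16 under R 4.3.3 (TMM, robust quasi-likelihood F test, Benjamini-Hochberg over all genes; passed means adjusted P below 0.05, and 1.5-fold was counted beside it). WT and PARP1 KO fits held 9 libraries each, and interactions and the genotype comparison all 18. A standard error is the size of a log2 fold change over the square root of F. With 3 libraries against 3, an exact permutation test cannot go below 0.1. Levels are CPM, or CPM per kilobase of exon not shared on the same strand. Promoter windows are from RefSeq (GRCh38.p14). Symbols matched 58472 of 58884 genes. The script was tested on simulated data. Replicate counts differed by more than sampling noise in all 18 pairs within groups (chi-square per gene 3.02 to 17.5).

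The 9 enzymes are all named, with genes from lists of upstream enzymes, electron donors, regulators and relatives, and up to 3 genes most like each enzyme. Members and lists were chosen with earlier results of these data known. Alternatives were RLE size factors, filterByExpr, no filter, DESeq2 1.42.0, a replicate block, all 18 libraries in 1 fit and each library left out in turn.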

Additional observations from a re-analysis of the deposited data

Results flagged for a closer look

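For 7 of the 9 enzymes the change with niraparib differed between PARP1 KO and WT cells by the interaction test across all genes (edgeR, 18 libraries), 6 higher and 1 lower, beside 10.4% and 12.5% of all genes tested. The difference, as the log2 change in PARP1 KO minus that in WT, was 1.11 for MSMO1, 0.50 for CYP51A1, 0.47 for DHCR7, 0.38 for EBP, 0.33 for NSDHL, 0.25 for TM7SF2 and -0.47 for SC5D. With a library left out, CYP51A1 passed in 2 of 12 fits and TM7SF2 in 6. With olaparib 0 of the 9 differed by this test, beside 0.912% of all genes higher and 1.35% lower, and 0 passed with DESeq2. At an unadjusted P value below 0.05 (edgeR) there was 1, LSS, which ranked 2321 by P value among 24675 genes. What sets the lines apart beyond their PARP1 label was not tested.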

How the results depend on the processing

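Of 24 calls in 81 tests of an enzyme in a comparison, 20 passed in the same direction in every other setting and 15 also passed whichever library was left out. CYP51A1 had 129 to 271 reads per library and HSD17B7 197 to 383, which limits their precision. The replicate numbers do not pair the libraries: 45 pairs with the same number had residual correlations from -0.63 to 0.65, and 19 were above 0.1. The 90 pairs with other numbers ran from -0.66 to 0.72, and 40 were above 0.1. Libraries that stood apart deviated together across groups. WT niraparib replicate 2 had r = 0.72 with WT DMSO replicate 1 and with PARP1 KO niraparib replicate 3, and those 2 had 0.67. The source of this shared deviation was not tested, and no fit modelled it. With the replicate number as a block, the WT olaparib comparison had 2 lower, PARP1 KO olaparib had 0 lower, NSDHL between the drugs in WT had an adjusted P of 0.0567 and the CYP51A1 interaction 0.0501 (0.0712 without a filter); TM7SF2 with olaparib had 0.0312 in WT and 0.053 in PARP1 KO.

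With olaparib in WT, 2 enzymes were lower instead of 1 with RLE, filterByExpr, no filter, DESeq2, the block and all 18 libraries in 1 fit, and 1 to 2 with a library left out. With all 18 libraries in 1 fit, 0 were higher between niraparib and olaparib in WT (0 to 1 with a library left out) and 0 were lower with olaparib in PARP1 KO (0 to 1). There 1 was higher without a filter and with DESeq2 (0 to 1 with a library left out), and 1 was higher in the olaparib interaction without a filter. The count lower between the drugs in PARP1 KO was 0 to 1, and that higher in the niraparib interaction 3 to 6.

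None of the values that changed sign had passed. SC5D with niraparib in PARP1 KO was -0.0021 without a filter. With each library left out in turn, the log2 values in WT with olaparib ranged from -0.13 to 0.027 for CYP51A1, -0.0029 to 0.086 for MSMO1, -0.031 to 0.066 for HSD17B7 and -0.057 to 0.036 for EBP, and between the drugs from -0.055 to 0.078 for TM7SF2. In PARP1 KO they ranged with niraparib from -0.031 to 0.083 for NSDHL, -0.029 to 0.14 for HSD17B7 and -0.037 to 0.090 for SC5D, with olaparib from -0.060 to 0.15 for CYP51A1, -0.044 to 0.13 for HSD17B7 and -0.030 to 0.14 for SC5D, and between the drugs from -0.13 to 0.038 for SC5D. Between genotypes in DMSO they ranged from -0.10 to 0.019 for LSS, -0.0034 to 0.078 for CYP51A1, -0.013 to 0.11 for TM7SF2, -0.11 to 0.068 for HSD17B7 and -0.022 to 0.067 for EBP. In the olaparib interaction they ranged from -0.0024 to 0.21 for CYP51A1, -0.034 to 0.084 for TM7SF2, -0.074 to 0.11 for HSD17B7 and -0.079 to 0.0097 for EBP.

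Counts over all genes moved by more than 1.5 times where few genes passed. With niraparib in PARP1 KO, 24 genes passed, against 184 without a filter, 97 with DESeq2, 70 with all 18 libraries, 11 with the block and 8 to 26 with a library left out. Between genotypes in DMSO 344 passed, against 742 without a filter, 680 with DESeq2 and 51 to 274; in the olaparib interaction 559, against 1094, 1011 and 284 to 899. Leaving out a library gave 792 (without PARP1 KO DMSO replicate 2) to 1859 against 1827 with olaparib in PARP1 KO, and 1142 (without PARP1 KO niraparib replicate 2) to 2323 against 2203 between the drugs there. The 51 came without WT DMSO replicate 1, the 899 without PARP1 KO olaparib replicate 1 and the 284 without PARP1 KO olaparib replicate 2. The causes were not tested.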
